A study of Mus musculus with 36 samples.

Results

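Gas1, Cdon, Boc and Hhip encode the cell-surface proteins that bind Hedgehog ligands beside the Patched receptors, and the open chromatin around them was described in the digits of mouse embryos. The 4 genes were taken from the Hedgehog pathway, and their regions were chosen by the peak calls themselves: every peak that overlapped a gene body extended by 300 kb on each side, in any of 12 peak lists, was merged with the peaks it shared at least 1 bp with. This gave 142 regions of the 65543 in the whole series, or 0.217%. A region in such a window lies near the gene and need not act on it, and the windows of Cdon, Boc and Hhip also hold other protein-coding genes. The genes and the comparisons below were chosen with earlier results of these data known. The p-values are therefore not those of comparisons fixed beforehand.

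ATAC-seq marks accessible DNA by where a transposase can insert adapters. The tissue was autopod (hand and foot) cartilage of FVB/NJ embryos at stage E15.5, microdissected from both sides of 3 to 5 embryos of 1 litter, so each library pools 6 to 10 limbs. The 36 libraries form 12 groups of 3: metapodials (metacarpals of the forelimb, metatarsals of the hindlimb) and phalanges (of the hand or the foot), each for digits I, III and V. All groups have the same strain, age and labelled cell type (chondrocytes), and the labels give no treatment and no introduced allele. The phalanx pool of digit I has no intermediate phalanx and those of digits III and V have one, so the digits also differ in the bones they pool. Each group has 1 peak list, called on pooled libraries, so the list is the unit of every comparison below. No group has more than 1 list, so the p-values rest on how lists of different bones and digits differ, not on replicates. The SDs over lists likewise span different bones and digits.

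Hedgehog ligands reach the responding cell as lipid-modified proteins. The Patched receptors hold the transducer Smo in check until a ligand binds, after which GLI transcription factors change the expression of target genes. Gas1 is a GPI-anchored protein, and Cdon and Boc are related transmembrane proteins with immunoglobulin and fibronectin repeats; all are known to bind ligand together with Patched and to promote signalling. Hhip is a membrane-anchored protein that binds ligand and withholds it, and the gene is itself a target of the pathway. In growth-plate cartilage the ligand is Ihh, made by prehypertrophic chondrocytes.

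The promoters of Gas1 and Hhip are shown because a peak covered each of them in all 12 lists. They are the 250 bases before the RefSeq start (GRCm38.p6, the coordinates of mm10), written 5′ to 3′ on the strand of the gene. Capitals mark a GC box (GGGCGG or its complement CCGCCC) and a CCAAT box (CCAAT or ATTGG), found by exact match; the 2 kinds do not overlap here. Gas1 lies on the minus strand of chromosome 13 and its promoter spans chr13:60177536-60177785; Hhip lies on the minus strand of chromosome 8 and its promoter spans chr8:80058009-80058258.

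Gas1: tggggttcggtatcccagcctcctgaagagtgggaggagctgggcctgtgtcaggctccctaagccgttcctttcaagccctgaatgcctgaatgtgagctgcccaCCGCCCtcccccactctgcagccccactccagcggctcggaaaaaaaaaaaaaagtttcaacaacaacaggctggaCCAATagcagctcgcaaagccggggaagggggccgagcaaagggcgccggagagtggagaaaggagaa
Hhip: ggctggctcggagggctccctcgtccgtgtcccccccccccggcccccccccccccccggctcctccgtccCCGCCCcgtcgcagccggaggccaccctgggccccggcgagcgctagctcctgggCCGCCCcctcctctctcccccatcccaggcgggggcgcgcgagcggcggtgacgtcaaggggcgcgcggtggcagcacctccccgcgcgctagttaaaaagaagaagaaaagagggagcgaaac

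The Gas1 promoter has a GC content of 58.8%, at percentile 70.1 of the 32851 mouse promoters of the same length, and holds 10 CpG dinucleotides. Its GC box begins 144 bases and its CCAAT box 68 bases before the start. The Hhip promoter is far richer in G and C, at 76.0% (percentile 97.0) with 28 CpG, and has GC boxes 179 and 124 bases before the start. The median promoter has a GC content of 52.4% and 6 CpG; 32.7% of promoters hold a GC box and 33.8% a CCAAT box. The 9-base GLI motif GACCACCCA, on either strand, is in neither sequence, nor is its core ACCACCC, which lies within the longer motif. The longer motif occurs in 0.225% of all promoters and the core in 3.92%, and no match says only that these letters are not in these windows. For Cdon the same table gives a start at position 35452076 of chromosome 9, inside the gene body, where no list had a peak; that promoter (GC content 42.8%) holds none of the motifs.

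Gas1, Cdon and Hhip had a region over the 5′ end that was called in every list, and Boc had one over either end. The Gas1 region (chr13:60173176-60179868, 6693 bp), merged over the lists, spans the whole 3.1-kb gene, and the peak itself reached the 3′ end in 4 of the 12 lists. In each list it is 1 peak of 4150 to 6681 bp, at or above percentile 90.3 of the list for width, with its summit at -218 to -10 bp in coordinates from the 5′ end, inside this minus-strand gene. Ranked by significance within its list, the Gas1 peak stood in the top 9.13% (foot phalanges V) to 17.4% (metacarpal I), and it was the strongest peak of the Gas1 window in all 12 lists. The authors' fold enrichment at this peak was 25.0 to 55.5 and is used only within a list.

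The region at the 5′ end of Cdon (chr9:35420234-35426097, 5864 bp) ranked higher still, in the top 2.84% to 12.7% of the lists, with summits at -162 to 78 bp from the gene end, where negative values lie upstream. At the 3′ end a second region (chr9:35506838-35511824) was called in all 12 lists, and its peak reached the gene end itself in 10 of them. This region also covers an end of Gm1113, its nearest protein-coding gene, and its summits lay 734 to 739 bp beyond the Cdon end.

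Boc, whose strand the tables used here do not give, has the widest region of the 4 windows. It covers 28542 bp at the higher-coordinate end of the gene (chr16:44532289-44560830), joining 3 to 5 peaks per list, the strongest of them in the top 4.64% to 13.0%. Peaks covered 25098 bp of it in metacarpal I, 26743 bp in metatarsal I, 18176 bp in hand phalanges I and 9790 bp in foot phalanges I. The digit III lists covered 14044, 16281, 12265 and 19408 bp and the digit V lists 8643, 8611, 10151 and 14653 bp in the same order of elements. The lower-coordinate end lies in a region shared with the end of Cfap44 (chr16:44478034-44489408), in the top 26.2% to 60.9%. In no list was the strongest peak of the Boc window at Boc. It lay by Nepro in metacarpal I, by Gtpbp8 in metacarpal III and by Spice1 in the other lists, in the top 0.838% to 1.72%.

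The region over the 5′ end of Hhip (chr8:80053122-80059848, 6727 bp) is 1 peak of 2838 to 6406 bp in each list and ranked in the top 15.9% to 29.3%. The strongest peak of the Hhip window was not at Hhip but at a region by Abce1 and Anapc10 (chr8:79710303-79713258).

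Of the 142 regions, 59 (41.5%) were called in all 12 lists, against 35.6% of all regions in the series. Regions called in 1 list numbered 18 (12.7%), against 17.0%. The windows of 21 other Hedgehog pathway genes held 628 regions, 46.8% of them in all 12 lists. Regions called in every list also had the higher-ranked peaks. A call depends on the significance of the peak, so this follows from how the regions were sorted. In the Gas1 window their peaks had a median rank in the top 41.6%, against 79.2% for peaks of the other regions. The pairs were 35.5% and 81.3% for Cdon, 28.3% and 74.3% for Boc, and 36.0% and 74.4% for Hhip. The like ranks over all regions are not given here.

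The lists differ in length, from 36194 peaks (metacarpal I) to 53276 (metacarpal III), and in the significance at which they end, from a −log10 p-value of 23.0 to 49.6. Absence of a call can reflect where a list ends and does not show that the DNA was inaccessible. Each comparison is therefore also given at equal length, with the 36194 most significant peaks of every list. At equal length 123 of the 142 regions were still called in some list and 54 in all 12.

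The Gas1 window has the most regions and varied most between lists. It contains no other protein-coding gene and held 44 regions, or 7.3 per 100 kb; the 300-kb windows of protein-coding genes had a median of 24. Of the 44, 13 (29.5%) were called in all 12 lists, 25 in 2 to 11 lists and 6 in 1 list. For 29 the nearest protein-coding gene is Gas1, for 9 it is Tut7 and for 6 it is Dapk1. The regions called in every list and nearest to the gene, after the one over the gene itself, lie 48.1 kb away at higher coordinates (chr13:60225657-60227571) and 62.5, 72.2 and 87.4 kb away at lower coordinates. The number called per list had a coefficient of variation of 22.2%, at percentile 90.3 of the 9629 windows with 25 to 44 regions (median 12.3%). At equal length it was 24.8%, at percentile 98.3 (median 9.35%).

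At equal length the Gas1 window held 20, 13 and 15 called regions in metacarpals I, III and V, a mean of 16.0. It held 23, 15 and 22 in metatarsals I, III and V. The hand phalanges had 28, 18 and 18, a mean of 21.33, and the foot phalanges 29, 23 and 25, a mean of 25.67. Counts were thus lowest in the forelimb metapodials and highest in the hindlimb phalanges, and within each limb and element digit I was highest.

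The hindlimb lists then had 22.83 ± 4.58 called regions in the Gas1 window (SD, n = 6 lists) and the forelimb lists 18.67 ± 5.2, a difference of 4.17, with the hindlimb higher in 6 of 6 pairs of the same element and digit (two-sided exact permutation p = 0.0312, the smallest possible). Of all protein-coding windows, 2.32% reached an exact p at or under 0.05 in that direction and 1.19% in the other. Phalanges had 23.5 ± 4.76 and metapodials 18.0 ± 4.2, a difference of 5.5, with phalanges higher in 6 of 6 pairs (exact permutation p = 0.0312), as did 8.01% of windows, against 4.18% in the other direction. Digit I lists had 25.0 ± 4.24 (n = 4) and the others 18.62 ± 4.31 (n = 8), a difference of 6.38, higher in 4 of 4 combinations of limb and element (exact permutation p = 0.0123, the smallest possible; 10.6% of windows, and 3.3% in the other direction). Digit III lists had 17.25 ± 4.35 against 22.5 ± 4.81, a difference of -5.25, lower in 4 of 4 (exact permutation p = 0.0494; 5.57% of windows, and 4.56% in the other direction). For digit V the difference was -1.12 (exact permutation p = 0.728), where 1.29% of windows were lower and 1.51% higher at the threshold.

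None of these held after Benjamini-Hochberg adjustment of the exact permutation p over all windows. The adjusted p was 0.595 for limb, 0.253 for element, 0.317 for digit I and 0.488 for digit III. The smallest adjusted p of any window was 0.595, 0.253, 0.317 and 0.465 in the same order. No window of the series passed in these comparisons, so the adjustment does not tell Gas1 from other windows. In each comparison the ranges of the classes overlapped. The limb call was lost without metacarpal III (3.03, exact permutation p = 0.219) and without foot phalanges I (2.93, p = 0.312). The element call was lost without either of these (4.5 and 4.4, each exact permutation p = 0.125), without metacarpal V (4.9, p = 0.0938) and without foot phalanges V (5.2, p = 0.0625). The digit I call was lost without metacarpal III (5.57), metacarpal V (5.86) or foot phalanges I (5.04), at exact permutation p of 0.0556, 0.0556 and 0.185. The digit III call was lost without any 1 of 8 lists (all but metacarpals I and V and hand phalanges I and III), with differences from -7.17 to -3.83. With all lines of the lists, no Gas1 comparison reached the threshold. Nor did limb or element with all peaks above a common floor of −log10 p-value, at differences of 3.33 (exact permutation p = 0.344) and 3.0 (p = 0.312), or with all lines and flanks of 100 kb, at 0.5 (p = 0.75) and 1.5 (p = 0.0938). At the common floor digit I had 25.75 ± 5.56 regions and the others 15.62 ± 5.58 (exact permutation p = 0.0494), where 5.29% of windows were higher at the threshold, and digit III differed by 0.38 (p = 0.988).

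Among the cell type marker sets examined, that of skeletal muscle differed most by limb and by element in the same lists, with overlapping ranges. Of 6 muscle genes, those with a region within 1 kb of a gene end numbered a mean of 4.0 (3 to 5) per hindlimb list and 2.33 (1 to 5) per forelimb list at equal length, and 3.83 (1 to 5) in phalanges against 2.50 (1 to 4) in metapodials. By digit the means were 3.25 in digit I, 2.75 in digit III and 3.50 in digit V. With all lines each of the 6 had a region in some list, from Myog in 3 lists to Tnnt3 in 12, and at equal length Myog had one in 2 lists and Tnnt3 in 12. The muscle genes that differed by limb and by element were partly not the same. At equal length Myf5 had a region in 6 hindlimb and 2 forelimb lists, Acta1 in 4 and 1, Myod1 in 3 and 1. Pax7 was at 4 and 3, Myog at 1 and 1 and Tnnt3 at 6 and 6. In phalanges and metapodials Pax7 was at 5 and 2, Acta1 at 4 and 1 and Myog at 2 and 0. Myod1 (2 and 2), Myf5 (4 and 4) and Tnnt3 (6 and 6) did not differ there. For chondrocyte genes the equal-length means were 13.17 in hindlimb, 13.83 in forelimb, 13.67 in phalanges and 13.33 in metapodials. For nerve and Schwann cell genes they were 3.00, 3.00, 3.17 and 2.83 in the same order. For hypertrophic chondrocyte genes they were 2.67, 2.50, 2.50 and 2.67, and for endothelium genes 3.00, 2.83, 2.83 and 3.00. The osteoblast, joint, blood, epidermis and tendon sets had equal means in these classes. The share of all genes per class is not given here. The part of the muscle genes in the Gas1 differences was not tested. The lists of digit I end at −log10 p-values of 49.6 (metacarpal), 41.5 (metatarsal), 48.5 (hand phalanges) and 31.0 (foot phalanges).

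With all lines the Gas1 window held 20, 29 and 16 called regions in metacarpals I, III and V, 32, 22 and 22 in metatarsals, 30, 26 and 19 in hand phalanges and 31, 33 and 29 in foot phalanges. The longest list, metacarpal III, lost 16 of its 29 at equal length. Hindlimb lists had 28.17 ± 4.96 and forelimb lists 23.33 ± 5.79, a difference of 4.83 (exact permutation p = 0.188), and phalanges had 28.0 ± 4.98 and metapodials 23.5 ± 5.92, a difference of 4.5 (p = 0.188, exact permutation). Digit V lists had 21.5 ± 5.57 against 27.88 ± 4.76 in the others, a difference of -6.38, lower in 4 of 4 combinations (exact permutation p = 0.0741). The digit V difference reached the threshold without metacarpal I, metacarpal III or any 1 metatarsal list (-7.5 to -5.79, each exact permutation p = 0.037). It did not without any other list. With only the regions nearest to Gas1 it was -4.0 (exact permutation p = 0.037). For digit I the difference was 3.75 (exact permutation p = 0.284) and for digit III 2.62 (p = 0.469, exact permutation). The sign for digit III thus turned with list length.

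**Figure D1:**
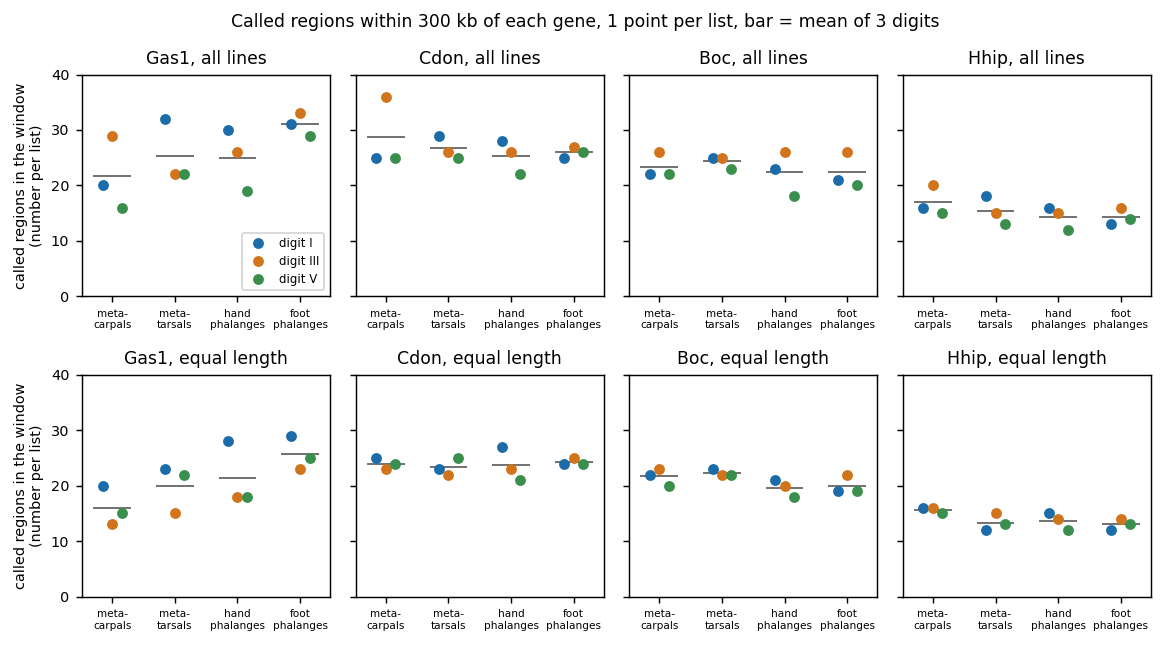
Called regions in the 300-kb windows of Gas1, Cdon, Boc and Hhip in each of the 12 lists, with all lines of the lists and at equal length; points are lists coloured by digit and the bar is the mean of 3 digits. At equal length the Gas1 mean goes from 16.0 in metacarpals to 25.67 in foot phalanges, and the other genes span less.

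The Cdon window held 39 regions among 17 other protein-coding genes, 21 of them (53.8%) called in all 12 lists. Over the 86.1-kb gene itself lie 9 regions, 4 of them in every list: the 5′ region, 2 inside the gene (chr9:35466183-35469139 and chr9:35490375-35492276) and the 3′ region. With all lines metacarpal III had 36 called regions and the other 11 lists 22 to 29: 25 and 25 in metacarpals I and V, 29, 26 and 25 in metatarsals I, III and V, 28, 26 and 22 in hand phalanges and 25, 27 and 26 in foot phalanges. At equal length the lists lay between 21 and 27 (23.83 ± 1.59, SD, n = 12) and metacarpal III, with 23, no longer stood apart.

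No Cdon comparison reached the threshold in either setting. With all lines the differences were -0.67 for hindlimb against forelimb (exact permutation p = 0.875), -2.0 for phalanges against metapodials (p = 0.469, exact permutation), 0.12 for digit I, 3.12 for digit III and -3.25 for digit V (exact permutation p = 1.0, 0.222 and 0.185). The limb means at equal length were the same, at 23.83, and the other differences lay between -0.88 and 1.38 (exact permutation p from 0.259 to 0.875). The coefficient of variation at equal length was 6.65%, at percentile 24.9 of windows of like size.

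One region of the Cdon window stood out by its shape. It is 389 bp wide (chr9:35305208-35305596), 115.9 kb before the gene and over Gm33838, with peaks of 383 to 388 bp whose summit fell on the same base, 35305456, in all 12 lists. It ranked 7 to 9 in every list, with an authors' fold enrichment of 2420 to 5370 where the median peak of a list had 8.93 to 15.6. It was called in every list, so leaving it out lowers each count by 1 and changes no difference. No filter for mappability was applied to the regions here, and whether these extreme values reflect accessibility was not tested.

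The Boc window held 34 regions among 8 other protein-coding genes, 16 of them (47.1%) in all 12 lists; 8 regions overlap the 73.8-kb gene and 5 of these were in every list. With all lines the counts were 22, 26 and 22 in metacarpals I, III and V, 25, 25 and 23 in metatarsals, 23, 26 and 18 in hand phalanges and 21, 26 and 20 in foot phalanges. Digit III lists were thus at 25 or 26 and digit V lists at 18 to 23, with overlap, since metatarsal I also had 25 and foot phalanges I 21. Digit III had 25.75 ± 0.5 (SD, n = 4) and the others 21.75 ± 2.12 (n = 8), a difference of 4.0, higher in 4 of 4 combinations of limb and element (exact permutation p = 0.0247, Benjamini-Hochberg adjusted p = 0.119). Digit V had 20.75 ± 2.22 against 24.25 ± 1.98, a difference of -3.5, lower in 4 of 4 (exact permutation p = 0.0494, adjusted p = 0.401). Over all windows the smallest adjusted exact permutation p was 0.116 for digit III and 0.401 for digit V. As for Gas1, a window could pass only if a large share of all windows had the smallest p-values.

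Boc was the 1 gene of the 4 to reach the threshold for digit III and for digit V with all lines, and both patterns are common. For digit III 30.2% of all windows were higher at the threshold and 0.00475% lower; for digit V 11.9% were lower and 0.0143% higher. With lists of equal length the Boc counts were 22, 23 and 20 in metacarpals, 23, 22 and 22 in metatarsals, 21, 20 and 18 in hand phalanges and 19, 22 and 19 in foot phalanges. The difference for digit III was then 1.25 (exact permutation p = 0.198) and for digit V -1.75 (p = 0.0617, exact permutation). Phalanges had 19.83 ± 1.47 and metapodials 22.0 ± 1.1, a difference of -2.17 (exact permutation p = 0.0625). With all lines, the digit III call was lost without metacarpal III, hand phalanges III or foot phalanges III (3.92 each) and without foot phalanges I (3.89), each at exact permutation p = 0.0741, and the digit V call was lost without any 1 of 8 lists (all but metacarpals III and V and foot phalanges I and III), with differences from -4.25 to -2.58.

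With all lines no member reached the threshold for limb, element or digit I. Of all windows, 1.97% reached it with more regions in the hindlimb and 0.195% with fewer, 2.76% with more in phalanges and 2.65% with fewer, and 1.84% with more in digit I and 0.789% with fewer.

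The Hhip window was the sparsest, with 25 regions (3.61 per 100 kb) among the 3 other protein-coding genes Otud4, Abce1 and Anapc10. Of these 9 (36.0%) were called in all 12 lists, and 5 overlap the 92.2-kb gene, 2 of them in every list: the 5′ region and an internal one (chr8:79993494-79996448). With all lines the counts were 16, 20 and 15 in metacarpals I, III and V, 18, 15 and 13 in metatarsals, 16, 15 and 12 in hand phalanges and 13, 16 and 14 in foot phalanges. At equal length they were 16, 16 and 15, then 12, 15 and 13, then 15, 14 and 12, and then 12, 14 and 13.

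At equal length the metacarpals were at 15 or 16 and the other lists at 12 to 15, and no Hhip comparison reached the threshold. Hindlimb against forelimb differed by -0.83 with all lines and by -1.5 at equal length (exact permutation p = 0.188 at equal length), and phalanges against metapodials by -1.83 and -1.17 (exact permutation p = 0.25 and 0.125). Digit V against the others differed by -2.62 and -1.0 (exact permutation p = 0.0741 and 0.235), digit III by 1.88 and 1.25 (p = 0.235 and 0.148, exact permutation), and digit I by 0.75 and -0.25 (exact permutation p = 0.716 and 0.815). With all lines, digit V reached the threshold when foot phalanges I was left out (-3.07, exact permutation p = 0.037).

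At the common floor of −log10 p-value, which keeps unequal numbers of peaks per list, all 4 windows were lower in digit V, as were 64.4% of all windows. The differences were -10.5 for Gas1, -6.0 for Cdon, -6.12 for Boc (each exact permutation p = 0.037) and -5.38 for Hhip (exact permutation p = 0.0247).

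**Figure D2:**
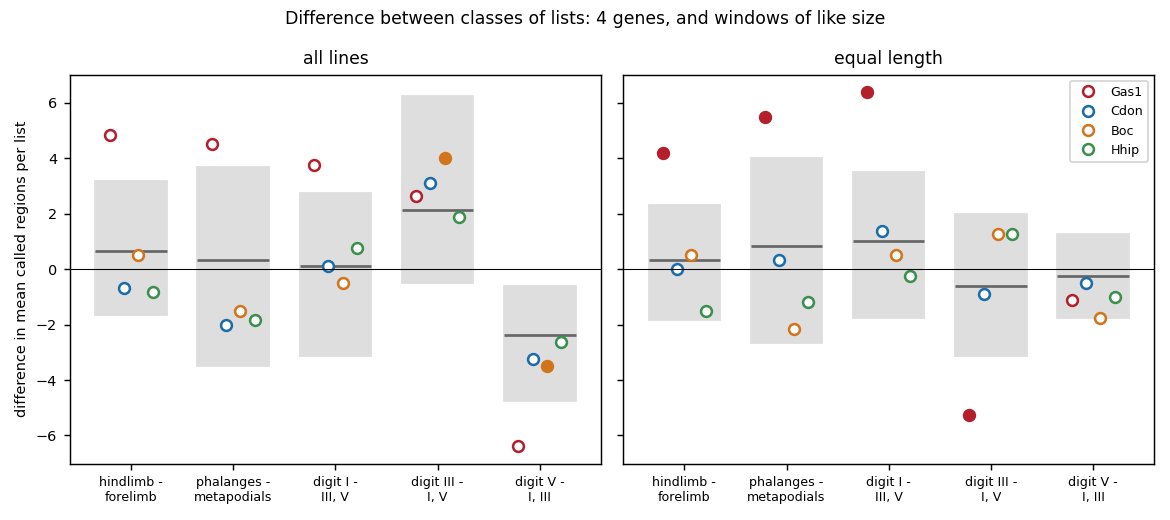
Difference in mean called regions per list for the 5 class comparisons and the 4 genes, with all lines and at equal length; filled points reached an exact permutation p at or under 0.05, and the grey box and line give the 5th to 95th percentile and the median over 9629 windows with 25 to 44 regions. At equal length the Gas1 differences of 4.17, 5.5, 6.38 and -5.25 lie outside the boxes, which end at 2.33, 4.0, 3.5 and -3.12. Gas1, with 44 regions, is at the upper end of the size range, and the differences are not scaled to the number of regions.

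Single regions are described without a test, since they were picked by their calls. With all lines, none of the 142 was called in every list of a limb, element or digit and in no other list, or the reverse for a digit, where 0.446% of all regions were. At equal length 1 of 123 was, against 0.55%. That region lies inside Boc (chr16:44512690-44514705, 2016 bp) and was called in 6 of 6 metapodial lists and 0 of 6 phalanx lists, a pattern held by 0.205% of all regions at equal length; with all lines it was also called in 3 phalanx lists.

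A looser pattern, with at least 5 of 6 lists of a class and at most 1 of 6 others, or the like for a digit, was met by 6 of 142 regions (4.23%) with all lines, against 3.93% of all regions, and by 8 of 123 (6.5%) at equal length, against 4.42%. Around Gas1, a region 104.3 kb away (chr13:60281810-60283413) was called in 6 of 6 hindlimb lists and 1 forelimb list, or in 5 and 0 at equal length. Close to it, a region 109.4 kb away (chr13:60286905-60288645) was called in all 6 metapodial lists and 1 phalanx list, hand phalanges I, in both settings. Another, 249.6 kb away and nearest to Dapk1 (chr13:60427085-60428459), was called in 5 hindlimb lists and 0 forelimb lists with all lines.

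On the other side of Gas1, nearest to Tut7, one region (chr13:59995257-59998016) was called in 5 phalanx and 1 metapodial lists with all lines, and another (chr13:59970275-59972836) in 5 phalanx and 0 metapodial lists at equal length. A region 190.1 kb from Gas1 (chr13:60367624-60370114) was called in 4 of 4 digit I lists and 1 other list at equal length, and in 9 lists with all lines; 0.0708% of all regions had the former pattern.

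Near Cdon, a region by Dcps (chr9:35134633-35137093) was called in 5 metapodial and 0 phalanx lists with all lines, and one 110.5 kb before the gene (chr9:35309847-35311035) in 6 phalanx and 1 metapodial lists at equal length. Near Boc, 2 regions closest to Nepro were called mostly in the hindlimb at equal length: chr16:44677862-44681444 in 5 of 6 hindlimb and 1 of 6 forelimb lists, and chr16:44686856-44689998 in 6 and 1. Near Hhip, a region 91.9 kb away (chr8:79872086-79873933) was called in 0 of 4 digit V lists and 7 of 8 others with all lines, as were 0.107% of all regions.

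With all lines the looser pattern was met by 0.861% of all regions for the hindlimb, 1.05% for phalanges and 1.16% for metapodials; at equal length by 0.641%, 1.53% and 1.5%.

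**Figure D3:**
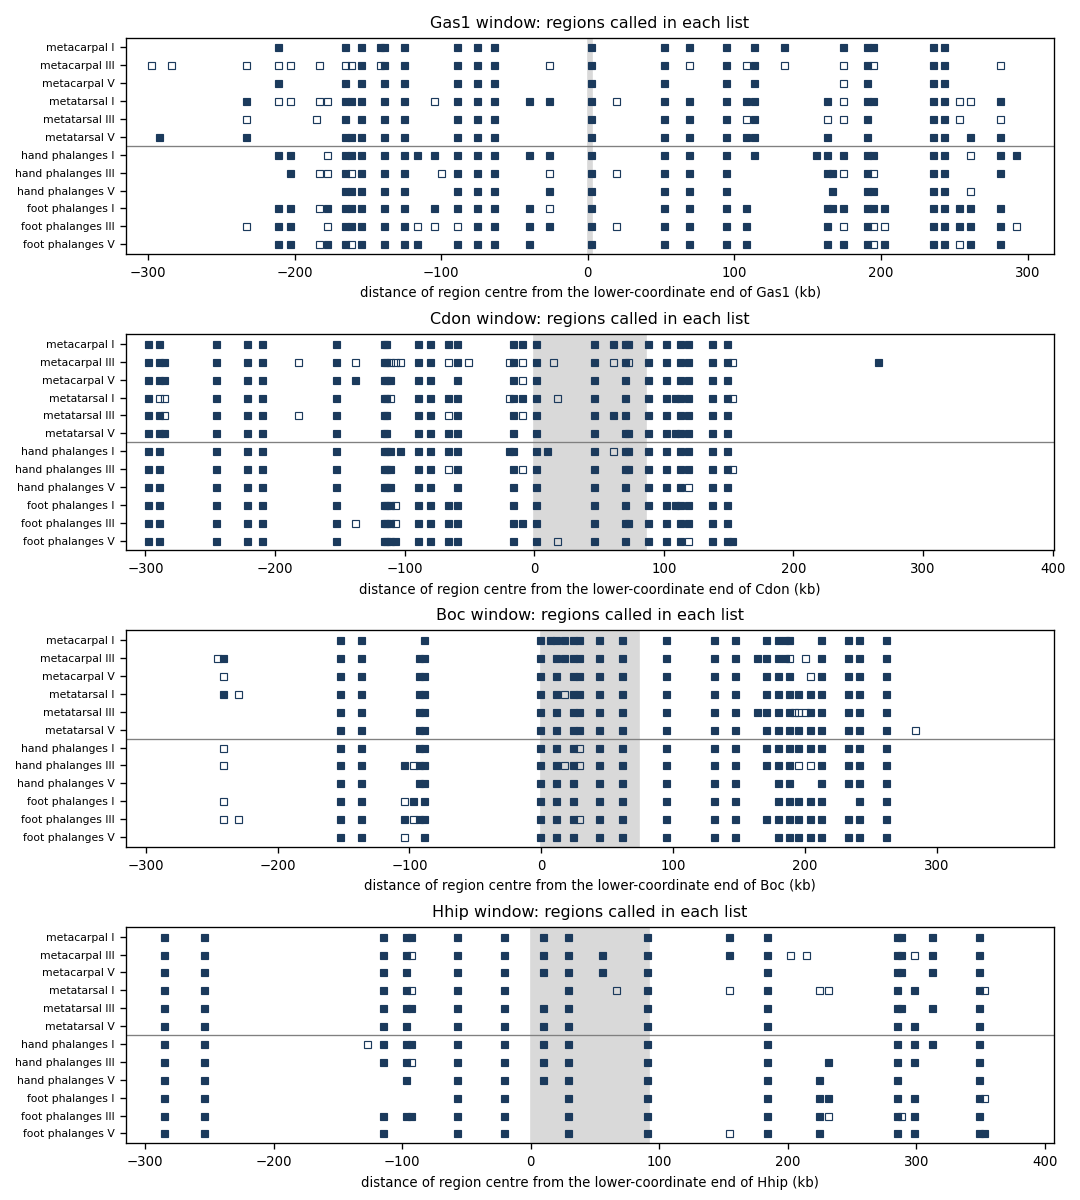
Called regions by list (rows, metapodials above the line and phalanges below) against the distance in kb from the lower-coordinate end of each gene, with the gene body in grey; filled marks were also called at equal length and empty marks only with all lines. The Gas1 panel has 44 regions and the Hhip panel 25, and the columns filled in every row include an end of each gene.

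The windows of 20 other Hedgehog pathway genes were compared in the same way. With all lines, 6 of 20 (30%) were higher in digit III (Gli2, Gpr161, Gli3, Ptch1, Lrp2 and Evc) and 0 lower, beside 30.2% of all windows higher; the median difference was 1.5 in the list and 1.62 over all windows. Digit V was lower in 2 of 20 (10.0%, Gli2 and Disp1), beside 11.9% of all windows. Digit I was higher in 1 of 20 (5.0%, Scube3), beside 1.84%. Spop was the 1 window of 20 higher in the hindlimb and the 1 higher in phalanges, beside 1.97% and 2.76% of all windows. Spop, an adaptor of a ubiquitin ligase that acts on GLI proteins, had 26.17 ± 2.14 regions in phalanges and 21.5 ± 3.08 in metapodials (exact permutation p = 0.0312, adjusted p = 0.448). The receptor gene Ptch1 had 21.5 ± 2.52 in digit III and 15.25 ± 3.11 in the others (exact permutation p = 0.0247, adjusted p = 0.119); at equal length the difference was 1.5 (p = 0.222). The transcription factor gene Gli2 had 33.25 ± 3.4 against 24.25 ± 4.53 (exact permutation p = 0.0247, adjusted p = 0.119), and at equal length a difference of 1.5 (p = 0.469). Gli3, also a transcription factor gene, had 28.75 ± 3.5 against 22.5 ± 2.2 (exact permutation p = 0.0123, adjusted p = 0.116), and at equal length a difference of 0.38 (p = 0.914).

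At equal length none of the 6 digit III calls was left; 0 of 20 windows were higher in digit III and 3 (15.0%) lower, namely Spop, Dhh and Scube3, beside 5.57% of all windows lower. Digit I was higher in 1 of 20 (5.0%, Gli1), beside 10.6%, and lower in 1 (Gpr161), beside 3.3%. Hindlimb and phalanges were each higher in 1 of 20 (5.0%, Spop), beside 2.32% and 8.01%, and digit V was called in 0 of 20 in either direction. Spop had 5.5 more regions per list in phalanges than in metapodials (exact permutation p = 0.0312, adjusted p = 0.253). Scube3, which encodes a secreted protein that helps to release ligand, had 20.75 ± 2.36 regions in digit III and 25.0 ± 2.27 in the others (exact permutation p = 0.0123, adjusted p = 0.465). Dhh, which encodes a ligand and was named after its values were seen, had 26.5 ± 1.0 regions in digit III and 28.62 ± 1.6 in the others (exact permutation p = 0.037). Gli1, a transcription factor and target of the pathway, had 28.0 ± 1.41 regions in digit I and 26.5 ± 1.07 in the others (exact permutation p = 0.037), and 25 of its 33 regions (75.8%) were in all 12 lists. Ihh, the growth-plate ligand, had 26.67 ± 1.37 in phalanges and 23.67 ± 1.97 in metapodials (exact permutation p = 0.0625). The medians of the 20 differences at equal length were 0.42 for limb, 0.83 for element, 0.62 for digit I, -0.19 for digit III and 0.0 for digit V, beside 0.0, 0.17, 0.12, -0.12 and -0.12 over all windows.

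The windows whose share of called regions followed that of Gas1 most closely over the 12 lists were those of Zfhx3, Ttc34 and Fam170a (Pearson r = 0.95, 0.94 and 0.93). For Cdon they were Spock2, 1700014D04Rik and Fzd5 (0.88, 0.85 and 0.83), for Boc Srl, Cep76 and Rai14 (0.88, 0.87 and 0.86), and for Hhip Stam2, Gm45935 and Pla2g2f (0.91, 0.89 and 0.88). These are the highest of 12316 to 17141 candidates and share the lists' length and depth, so they are a description only. Counts per list followed the number of regions called in the whole list less for Gas1 (r = 0.57) than for Cdon (0.83), Boc (0.78) and Hhip (0.79), also as a description over 12 lists.

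Of the labelled cell type, 14 of 14 chondrocyte marker genes had a region within 1 kb of a gene end, 12 of them in all 12 lists, against 70.2% and 63.8% of all protein-coding genes. Of hypertrophic chondrocyte genes 4 of 5 had one (Mmp13 had none), 2 of them in every list. Of genes of other cell types, regions in every list were found for 5 of 6 of osteoblast and perichondrium, 3 of 4 of joint interzone, 1 of 6 of skeletal muscle, 2 of 6 of endothelium, 3 of 5 of blood and macrophage, 1 of 4 of epidermis, 3 of 4 of tendon and 2 of 4 of nerve and Schwann cell. An accessible gene end does not show expression.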

How the data were processed

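ATAC-seq was done on 36 libraries of 12 groups. Bowtie2 2.3.4.1, Picard 2.9.0, MACS3 and mm10 are named, with no role or setting, in the submitters' processing notes. Trimming, filtering and any shift of reads to the transposase cut are not given in the sources used here; such a shift is small beside peaks whose median width is 1739 to 2223 bp. The 12 deposited lists are peaks called on pooled libraries, 1 list per group, per their peak names, and selected by irreproducible discovery rate, per the file names. Beside coordinates and a summit, the authors deposited a −log10 p-value, a score and a ratio (fold enrichment) for each peak; these peak caller's values served only to rank, filter or describe peaks within a list. No read counts were used, so the depth of each library is unknown and the 3 libraries of a group could not be compared.

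Peaks sharing 1 bp were merged over all lists, and a region counts as called in a list when a peak of that list overlaps it. Windows are RefSeq gene bodies (GRCm38.p6) with 300 kb on each side. Called regions per list were compared by two-sided exact permutation of labels within strata of the other 2 factors (64 labellings for limb and element, smallest p 0.0312; 81 for a digit, smallest p 0.0123), for all 21033 protein-coding windows with a region (20944 at equal length), with Benjamini-Hochberg adjustment over all of them. Regions enter when called in any list, whatever its class. The test was also run on simulated counts, drawn independently and alike for every list, with a large difference added in some windows. That setting has no differences in list length or in the significance at which lists end. It therefore does not show how the test behaves on these lists. Python 3.11.15, numpy 2.4.6 and pandas 2.3.3 were used.

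The genes, lists and comparisons were chosen with earlier results of these data known. Named are the 4 genes; of 21 other Hedgehog genes those reaching p at or under 0.05 with all lines, and Ptch1, Gli1 and Ihh; the 3 most correlated windows per gene, leaving out neighbours within 2 Mb; and regions at gene ends, called in all lists, or with a class pattern. The GC and CCAAT box searches were added after the data were seen. A planned protein comparison was not run and no Boc promoter is shown, for want of a sequence in the tables used. One item of the Hedgehog list is not reported here.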

Additional observations from a re-analysis of the deposited data

Results flagged for a closer look

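In 5 of the 56 groups of 4 or 6 lists examined, 1 list stood apart by Dixon's criterion. Chance meets it in about 1 of 20 groups when the groups are independent and the values continuous. Here the values are whole-number counts with ties and the groups share lists, so 5 of 56 cannot be set against that rate. With all lines, metacarpal I had 20 called regions in the Gas1 window and the other digit I lists 30 to 32. Metacarpal III had 36 in the Cdon window, apart both from the other metapodials (25 to 29) and from the other digit III lists (26 to 27). Metatarsal III had 25 in the Boc window, where the other digit III lists all had 26. At equal length metacarpal V had 20 in the Boc window, where the other metapodials had 22 or 23.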

How the results depend on the processing

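Counts of regions, of separating regions and of windows at the threshold were computed under each alternative. Against 142 regions, 59 of them in every list, 0 separating, and 0, 0, 0, 1 and 1 of the 4 windows at the threshold for limb, element, digit I, digit III and digit V, equal length gave 1 separating and 1, 1, 1 and 0 windows for limb, element, digit I and digit V, in file order, by −log10 p-value and with merging repeated (the last chosen after seeing the data). At equal length the 1 window for digit III was Gas1, at -5.25, where with all lines it was Boc, at 4.0. The count for digit III thus stayed the same while the gene and the sign changed. A common floor of −log10 p-value gave 38 in every list, 1 separating, and 1, 0 and 4 windows for digits I, III and V. The more significant 50% of each list gave 66 regions, 27 in every list and 0 windows for digit V. With that 50% the 1 window for digit III was Hhip (2.5, exact permutation p = 0.0247). Requiring peaks to cover 50% of a region gave 26 in every list, 1 separating and 0 windows for digits III and V. Summit windows gave 0 for digit V. Flanks of 100 kb gave 62 regions, 33 in every list and 1 window for element (Hhip), flanks of 10 kb gave 24, 12, and 0 windows for digits III and V, and regions nearest to the gene gave 70, 29, 0 for digit III and 2 for digit V (Gas1 and Cdon). Leaving out each list in turn gave 134 to 142 regions, 59 to 60 in every list, 0 to 1 separating, 0 windows for limb, element and digit I, 0 to 1 for digit III and 0 to 2 for digit V.

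Differences that changed sign: at equal length (the 3 ways) Cdon element 0.33, Boc digit I 0.5, Hhip digit I -0.25, Gas1 digit III -5.25 and Cdon digit III -0.88; at the common floor Boc limb -0.5 and Boc digit I 1.75; with the more significant 50% Boc limb -0.17, Cdon digit I -0.25 and Hhip digit I -0.5; with 50% covered Cdon limb 0.33 and Boc digit I 1.62; with summit windows Cdon digit I -1.38; with 100 kb Boc limb -0.83; with 10 kb Boc limb -0.67, Boc digit I 0.5, Hhip digit I -0.25 and Hhip digit V 0.12; and by nearest gene Boc limb -0.67 and Boc digit I 0.5. Leaving out 1 list changed the sign within these ranges: Cdon limb -1.67 to 1.13, Boc limb -0.47 to 1.17, Hhip limb -1.57 to 0.03, Cdon digit I -0.63 to 1.46 and Boc digit I -1.25 to 0.08. No cause was tested. Leaving out lists at equal length was chosen after seeing the data. For single libraries, no paired analysis was possible because each list pools the 3 replicates of its group. Whole lists were paired in the limb and element comparisons.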
